A study of Rattus norvegicus with 14 samples.

Results

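The baseline described here is the hippocampal transcriptome of the 4 control libraries among the 14 RNA-sequencing libraries of the study, which were chosen by their group label alone. The controls are wild-type Wistar rats of 180 to 220 g that were randomly assigned to receive vehicle. The other 10 libraries come from rats treated with pentylenetetrazole (PTZ), a convulsant, 5 with vehicle and 5 with Q808, which is known only as a code name. They were used here only to look up whether an order or a spread seen in the controls recurred. The sources used here give no sex, age, time of sampling or limits of dissection, and the labels do not name the animal behind each library. The spread between the 4 libraries may therefore hold technical as well as animal-to-animal differences.

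The hippocampus is a fold of cortex built from the granule cells of the dentate gyrus and the pyramidal cells of the CA fields, which are linked in a chain of glutamatergic synapses and restrained by GABAergic interneurons. Receptors and channels in these neurons are built from subunits of gene families, and the subunit that dominates sets kinetics, drug response and ion selectivity. The hippocampus borders the fibre tracts of the fimbria, the choroid plexus of the lateral ventricle, the thalamus and the overlying neocortex, and the striatum lies further forward in the same hemisphere.

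Values are FPKM (fragment counts per transcript length and library total), a scale meant for comparing genes within a library. The transcript lengths behind them and the division of reads between similar records are unknown here. Comparisons between genes below, family rankings included, are therefore comparisons of listed values. Of 22601 genes listed, 12456 (55.1%) were detected, defined as a mean of at least 1 FPKM over the controls, and 4520 were listed at 0 in all 4. Summed FPKM ran from 393986 to 403673 per library. Read totals were not used here, so absolute depth is unknown. Relative depth was read from the most common ratio to control 1 among genes above 0 but below 0.5 FPKM. It put the depth of controls 2, 3 and 4 at 0.955, 0.984 and 1.00 times that of control 1. That ratio was shared by 338 of 1947, 330 of 1883 and 318 of 1933 genes compared, so these depths are rough. A gene was called variable where log2(FPKM + 1) ranged by at least 1, which is 2-fold, over the 4 controls, and 492 of the detected genes (3.95%) were. For a list of 20 genes or fewer, a count of 0 variable members is near that share. Counts of variable members in the lists below stand against the same 3.95%. This share was 2.01% without control 2, 2.44% without control 3 and 0.813% without both. Spearman correlations between pairs of libraries over all genes, which are not independent replicates, lay between 0.982 and 0.988.

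Several markers of the hippocampus were present in all 4 controls. Neurod6, a transcription factor of pyramidal neurons, had 71.0, 72.5, 68.7 and 52.3 FPKM in controls 1 to 4. C1ql2, a secreted synaptic protein of dentate granule cells, had 66.1, 33.9, 58.0 and 59.0 FPKM, and Prox1, the transcription factor that defines those cells, had 10.99, 7.82, 7.07 and 8.59 FPKM. Fibcd1, a CA1 marker, was low at 1.25 ± 0.162 FPKM (mean ± SD over the 4 controls, as for all such values below). Zbtb20, a transcription factor of hippocampal pyramidal neurons, was also low at 1.79 ± 0.520 FPKM, and Spink8, a marker of CA pyramidal cells, was not detected at 0.117 ± 0.0814 FPKM. Of these defining genes, Neurod6, C1ql2 and Prox1 were thus clearly present, Fibcd1 and Zbtb20 lay near the detection limit, and Spink8 lay below it.

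Controls 2 and 3 stood apart in markers of neighbouring tissues. Control 2 carried high levels of striatal genes, and control 3 was nearly without choroid plexus genes. In bulk tissue, fewer cells of a type and less RNA per cell cannot be told apart. The main counts that rest on these libraries are given below with and without them.

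Transcript mass was spread over many genes, with a small group of very abundant ones. The 10, 100 and 1000 highest genes of a library held 6.03 ± 0.869%, 21.4 ± 0.671% and 57.7 ± 0.372% of its summed FPKM. Among detected genes the median was 10.1 FPKM. A mean of 1 to 10 FPKM was found for 6195 genes, 10 to 100 for 5531, 100 to 1000 for 710 and 1000 or more for 20.

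The top of the list mixed glial, neuronal and border-tissue products. Ttr, which encodes transthyretin, the thyroid hormone and retinol carrier secreted by the choroid plexus, had the highest mean, 3733 FPKM. Its values were 3136, 7125, 54.5 and 4616 FPKM in controls 1 to 4, so its rank rested on 3 libraries and it was far down in control 3. Its mean was 4959 FPKM without control 3 and 2602 without control 2. Cst3, encoding the protease inhibitor cystatin C, followed at 3627 ± 437 FPKM and was the highest gene in controls 1 and 3. Tmsb4x, encoding the actin-binding thymosin beta-4, reached 2751 ± 228 FPKM. The other beta-thymosin, Tmsb10, had 545 ± 36.8 FPKM.

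Myelin was represented by Mbp, myelin basic protein, with 2944, 3477, 1833 and 1765 FPKM. It was higher in controls 1 and 2 than in controls 3 and 4, with no overlap between those pairs.

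Calmodulin, the calcium sensor of all cells, is encoded by several genes. Calm3 had 2297 ± 214 FPKM and Calm2 had 1029 ± 19.4 FPKM, with a coefficient of variation of 1.89% for Calm2. Nrgn, neurogranin, a postsynaptic protein that holds calmodulin in its calcium-free state, had 1142 ± 89.5 FPKM.

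Iron and lipid handling were represented by Fth1, the ferritin heavy chain, at 2223 ± 167 FPKM, and Apoe, the lipid carrier made by astrocytes, at 1726 ± 139 FPKM. Apoe was lowest in control 2 at 1519 FPKM, against 1773 to 1809 in the others. Zwint, first described as a kinetochore protein and abundant in neurons, had 886, 1600, 2058 and 1917 FPKM and was lowest in control 1. Hba1, an alpha-globin of red cells, had 1741, 1242, 529 and 557 FPKM. Others of the 20 were Ubb, Actb, Gapdh, Cfl1, Hsp90ab1, Ppia and the sodium pump subunit Atp1b1, with coefficients of variation from 2.68% (Hsp90ab1) to 10.9% (Gapdh).

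**Figure D1:**
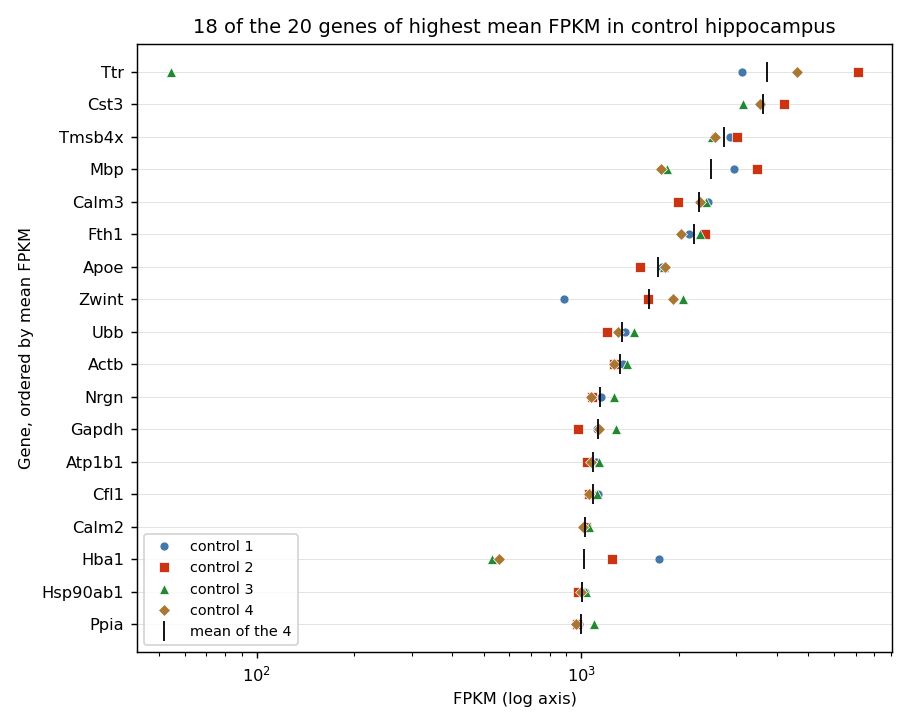
FPKM (log axis) of 18 of the 20 genes of highest mean in each of the 4 control libraries, with the mean as a vertical bar. Most genes form tight clusters, whereas Ttr falls to 54.5 FPKM in control 3 and Mbp and Hba1 split into a high pair (controls 1 and 2) and a low pair.

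Large functional classes were described by their share of the summed FPKM, which averages over many genes. The 80 detected cytosolic ribosomal protein genes held 5.58 ± 0.208% of the summed FPKM, with 12 of them in the top 100 and Rps29 highest at 977 FPKM. Nuclear genes of oxidative phosphorylation held 3.94 ± 0.140% over 91 detected genes, led by Atp5b, the catalytic beta subunit of ATP synthase, at 805 FPKM. Translation factors held 1.17 ± 0.0257%, with Eef1a1 at 996 FPKM, and V-ATPase genes, which acidify synaptic vesicles and lysosomes, held 1.04 ± 0.0785%. Of 13 mitochondrially encoded genes looked up by name, 0 were found. The shares of summed FPKM given here and above are thus of a total in which none of them was found.

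Genes of the synaptic vesicle were abundant. All 16 listed presynaptic vesicle and fusion genes were detected and 1 of them was variable. Syp, the vesicle membrane protein synaptophysin, had 843 ± 119 FPKM and Snap25, a membrane-fusion SNARE, had 675 ± 35.8 FPKM. Stx1a, the syntaxin partner of Snap25, was the variable one, with 53.8, 35.7, 97.7 and 90.3 FPKM. It was lowest in control 2 and highest in control 3.

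For 90 receptor, channel and transporter families with 514 members, the member with the highest mean FPKM over the controls was taken as the dominant one. Dominant refers here to the listed transcript level only. Since it was chosen from these libraries, its lead in them is a description. Reads assigned to another record of a member could change the order in a family, and this was not tested. An exact sign-flip permutation test over 4 pairs cannot give a two-sided p below about 0.13, that of 2 among 16 sign patterns, so no order could pass at 0.05. The order was instead described by the number of libraries that showed it, and it was looked up in the 10 PTZ-treated libraries, which were not used to choose it. In 70 families the same gene was counted as leading in all 4 controls, and in 61 of these it also led in all 10 other libraries. The 70 include the monoamine transporters, where Slc6a3 and Slc6a2 were both at 0 FPKM in control 1, so no gene led there. In 87 of the 90 families the dominant member had a mean of at least 1 FPKM. The dominant member held more than 50% of its family's summed FPKM in 51 families and more than 90% in 10, with a median share of 55.8%. Of the 514 members, 368 were detected and 18 were listed at 0 in all controls.

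**Figure D2:**
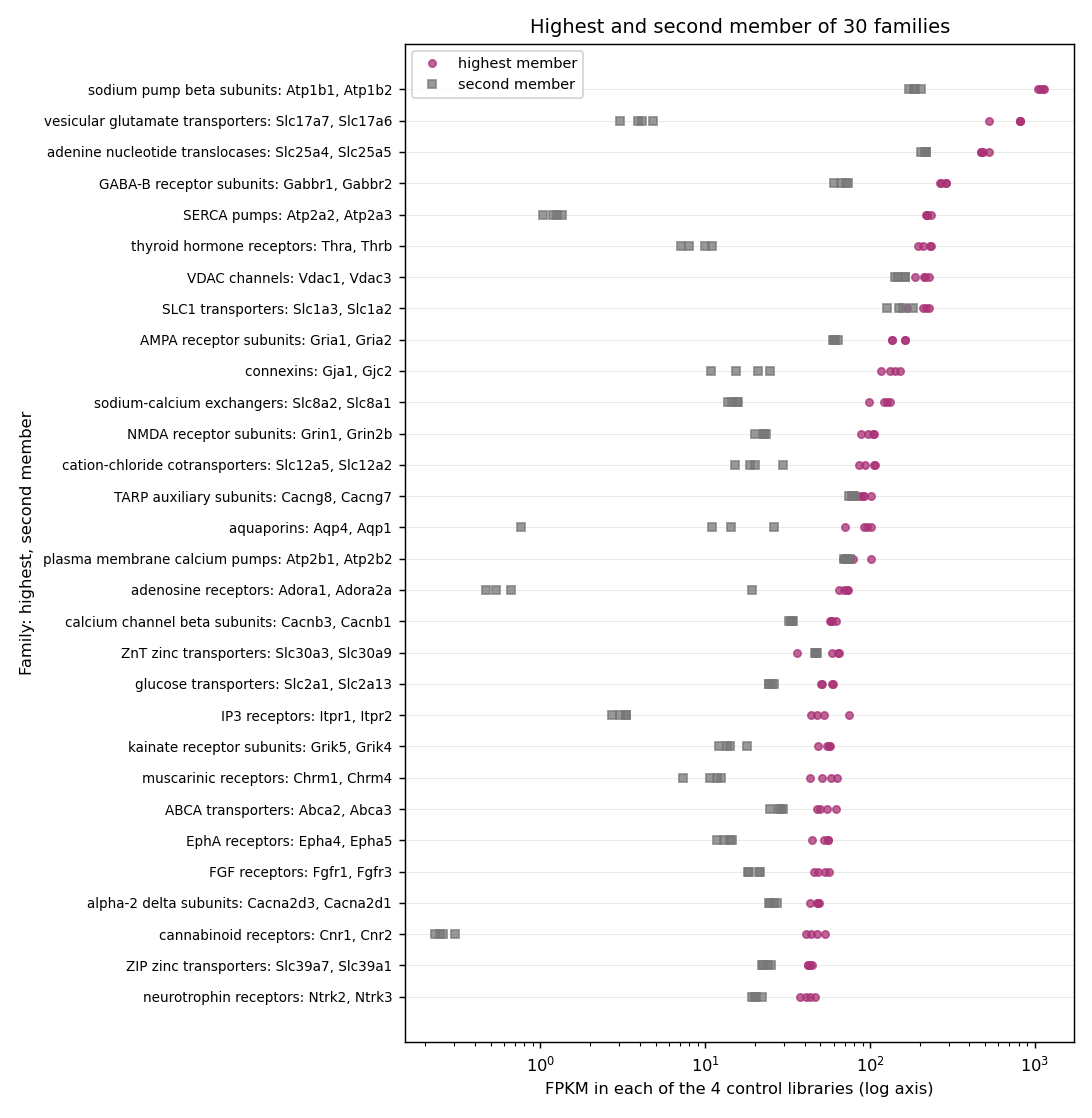
FPKM (log axis) of the highest member (circles) and the second member (squares) in each of the 4 control libraries, for 30 families with an abundant highest member. The gap is wide for Slc17a7, Atp2a2 and Cnr1, and the points overlap for Atp2b1, Slc30a3 and Slc1a3 with their second members.

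Ionotropic glutamate receptors carry fast excitation. Among AMPA receptor subunits, Gria1 had 163, 137, 135 and 163 FPKM and Gria2, the subunit that makes the channel impermeable to calcium when edited, had 60.6, 60.8, 59.1 and 64.3 FPKM. Gria1 was 2.44-fold higher in the mean, with a ratio from 2.24 to 2.68, and led in all 14 libraries. Gria3 followed at 30.6 and Gria4 at 12.8 FPKM. The auxiliary TARP subunits that traffic these receptors were led by Cacng8 at 93.0 ± 6.17 FPKM and Cacng7 at 77.6 ± 2.51 FPKM. Cacng2, stargazin, was lower at 10.8 FPKM.

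The obligatory NMDA receptor subunit Grin1 had 98.6 ± 8.18 FPKM, 4.44-fold above the next member. Of the GluN2 subunits, which set channel kinetics, Grin2b had 22.9, 23.4, 20.1 and 22.6 FPKM and Grin2a had 18.7, 18.8, 14.6 and 24.2 FPKM. Their order was not stable: Grin2b led in controls 1 to 3, Grin2a in control 4, and Grin2b in 6 of the 10 other libraries. Grin2c, a subunit best known from the cerebellum, was close at 16.3 FPKM. Kainate receptors were led by Grik5 at 54.3 ± 4.13 FPKM, 3.77-fold above Grik4. Metabotropic receptors were shared among several genes. Grm5, which couples to calcium release, held 28.3 ± 2.21% of that family's sum at 18.7 FPKM, ahead of Grm2 at 10.5 FPKM. Of the 30 detected glutamate receptor genes 0 were variable, against 3.95% of all detected genes, so a count of 0 or 1 is near the background.

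GABA-A receptors are chloride channels built of alpha, beta and gamma or delta subunits. Gabra5, the alpha subunit of extrasynaptic receptors that is typical of the hippocampus, had 75.6, 60.0, 70.1 and 67.4 FPKM. Gabra2 had a mean of 46.5 FPKM. Gabra5 led the family in all 4 controls, but in 6 of the 10 other libraries only. Gabra6, the cerebellar granule cell subunit, was at 0.0472 FPKM.

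Gabrd, the delta subunit of tonic receptors on dentate granule cells, had 20.01, 33.2, 25.5 and 21.6 FPKM and held 96.4 ± 1.13% of its group. The metabotropic GABA-B receptor, an obligate dimer of both its subunits, showed unequal transcripts, with Gabbr1 at 278 ± 11.8 FPKM and Gabbr2 at 68.0 ± 5.83 FPKM. Among glycine receptor subunits, Glrb, which anchors the receptor, held 90.9 ± 1.25% at 30 FPKM, and the channel-forming Glra2 had 2.61 FPKM. Each of the 7 families in this class had 1 leader in all 4 controls, and none of the 16 detected members was variable.

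Receptors for neuromodulators were lower and less even. Cnr1, the presynaptic cannabinoid receptor, held 99.4 ± 0.130% of its family at 46.4 ± 5.45 FPKM. Adora1, the inhibitory adenosine receptor, had 72.2, 65.1, 69.5 and 73.5 FPKM and led in all 14 libraries. Its excitatory relative Adora2a had 0.663, 19.2, 0.469 and 0.535 FPKM and was high in control 2 alone. Chrm1, the main postsynaptic muscarinic receptor of forebrain neurons, had 53.8 ± 8.63 FPKM, 5.08-fold above Chrm4.

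Of the nicotinic subunits, Chrnb2 held 97.0 ± 0.861% of the beta subunits at 25.7 FPKM. The alpha position was shared: Chrna4 had 9.07, 11.2, 18.4 and 14.4 FPKM and Chrna7 had 11.7, 9.07, 12.1 and 11.4 FPKM, with Chrna7 ahead in control 1 only. Hrh3, the histamine autoreceptor and heteroreceptor, had 22.2 ± 4.74 FPKM. Adrb1 had 6.18 ± 1.06 FPKM and led the beta-adrenergic receptors. Among opioid receptors the nociceptin receptor Oprl1 led at 6.67 ± 1.26 FPKM, whereas Oprm1, the mu receptor, was at 0.448 FPKM.

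Dopamine receptors had no consistent leader. Drd1 had 1.72, 20.2, 3.04 and 2.85 FPKM. Drd2 had 1.49, 29.4, 2.01 and 1.89 FPKM. In the mean Drd2 was the higher, 1.25-fold, but this came from control 2: Drd1 led in the other 3 controls, the mean log2 difference had the opposite sign (-0.11), and Drd2 led in 0 of the 10 other libraries. Serotonin receptors also changed order. Htr2c, the receptor most abundant in choroid plexus and also made by neurons, had 30.2, 47.8, 18.3 and 29.4 FPKM, and Htr1a, the inhibitory receptor of pyramidal and granule cells, had 22.0, 14.4, 21.1 and 22.5 FPKM. Htr1a led in control 3, the library low in choroid plexus genes, and Htr2c in the other 3. The part of the plexus in Htr2c was not tested.

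Smaller modulatory families were close contests. Adra1d led the alpha-adrenergic receptors in controls 1, 3 and 4 and in all 10 other libraries, and Adra2c in control 2 (20.8 against 19.2 FPKM). Sstr4, Sstr2, Sstr1 and Sstr3 all lay between 7.503 and 10.3 FPKM in the mean, and Sstr1, with 6.21, 4.18, 12.02 and 8.84 FPKM, led in control 3. Npy1r and Npy2r had means of 5.63 and 5.44 FPKM, and Npy2r led in control 1. P2ry12, a microglial receptor, led the P2Y family at 3.87 ± 0.843 FPKM in controls 2 to 4.

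Among hormone and growth factor receptors, Thra, the thyroid hormone receptor alpha gene, was the most abundant at 218 ± 18.3 FPKM and held 96.0 ± 0.749% of its pair. The mineralocorticoid receptor Nr3c2, for which the hippocampus is a main site, had 30.8, 23.8, 22.5 and 26.2 FPKM. The glucocorticoid receptor Nr3c1 had 11.6, 12.7, 9.82 and 10.3 FPKM, so Nr3c2 was 2.32-fold higher, with a ratio from 1.87 to 2.64, and led in all 14 libraries. Ntrk2, the BDNF receptor, had 42.0 ± 3.54 FPKM, 2.06-fold above Ntrk3. Fgfr1 (50.9 FPKM), Epha4 (51.9 FPKM), Ephb6 (22.2 FPKM) and Erbb3 (9.17 FPKM) led their families in all controls. Retinoic acid receptors gave the only changed order in this class, with Rarb at 1.22, 7.01, 1.38 and 1.17 FPKM passing Rara in control 2 alone.

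Voltage-gated sodium channels start the action potential. The alpha subunits Scn2a and Scn8a were nearly level at 37.2 ± 3.55 and 34.7 ± 4.17 FPKM, a ratio between 1.02 and 1.22. Scn1a, which is typical of interneurons, had 5.999 FPKM. The beta subunit Scn3b was higher per length, at 158 ± 13.7 FPKM. Scn4b, typical of striatal and fast-spiking cells, had 8.88, 89.1, 10.1 and 10.1 FPKM and was high in control 2 alone.

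Calcium channel pores were shared among many genes. Cacna1e, the R-type pore, led at 25.8 ± 2.15 FPKM with only 24.3 ± 0.406% of the family, ahead of the P/Q-type Cacna1a at 18.9 FPKM. Auxiliary subunits were led by Cacnb3 (59.0 FPKM) and Cacna2d3 (47.0 FPKM), the latter 1.83-fold above Cacna2d1, a binding site of gabapentin. Among intracellular release channels, Itpr1 held 93.4 ± 1.73% of the IP3 receptors at 54.6 FPKM, and Ryr2 held 83.9 ± 3.11% of the ryanodine receptors at 19.5 FPKM. All 7 families of sodium and calcium channels kept 1 leader in all controls.

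Potassium channels set resting potential and firing pattern. Kcnd2, the dendritic A-type channel of CA1, held 64.0 ± 3.17% of Kv4 at 28.1 FPKM. Kcnip3, a calcium-binding partner of Kv4 channels, had 32.9, 26.7, 57.3 and 44.9 FPKM and was variable. The Kv1 family was split between Kcna1 (25.6 FPKM), Kcna6 (24.6 FPKM) and Kcna2 (20.6 FPKM), with Kcna1 ahead in controls 1 and 4 and Kcna6 in controls 2 and 3.

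Inward rectifiers were led by Kcnj9 at 38.5 ± 8.58 FPKM and Kcnj3 at 27.2 ± 3.91 FPKM, subunits of the channels opened by GABA-B and other inhibitory receptors. The astrocytic Kcnj10 followed at 22.7 FPKM. SK channels could not be ranked, since Kcnn2 and Kcnn1 had means of 4.01 and 3.99 FPKM and each led in 2 controls. Kcnt1 and Kcnt2 (Slack and Slick) changed order in control 1.

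Of the other channels, Hcn2 led the pacemaker channels at 44.7, 60.4, 45.5 and 44.0 FPKM. Gja1, the astrocytic connexin 43, had 136 ± 14.8 FPKM, and Aqp4, the water channel of astrocyte endfeet, had 89.7 ± 13.3 FPKM. Trpc4 led its family at 10.5 ± 1.01 FPKM. Asic4, with 4.26, 22.2, 5.13 and 3.78 FPKM, led the acid-sensing channels in control 2 only, and Asic2 in the other 3. Clcn6 and Clcn4 had means of 25.7 FPKM each, and each led in 2 controls.

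Vesicular glutamate transporters define the glutamatergic phenotype. Slc17a7, VGLUT1, had 807.5, 524, 807 and 810 FPKM and held 99.2 ± 0.371% of its family. It was lowest in control 2 and nearly equal in the other 3. Slc17a6, VGLUT2, which is typical of thalamus and of the subiculum, had 3.06, 4.84, 4.12 and 3.90 FPKM.

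Uptake of glutamate by astrocytes was shared between Slc1a3 (GLAST) with 228, 218, 168 and 208 FPKM and Slc1a2 (GLT-1) with 149, 157, 127 and 182 FPKM. Slc1a3 was higher in all 4 controls, 1.34-fold in the mean, but in 6 of the 10 other libraries only. Slc6a11, an astrocytic GABA transporter, had 28.4 FPKM. Slc6a9, glycine transporter 1, had 37.9 ± 8.05 FPKM. Plasma membrane monoamine transporters and the vesicular amine transporters were all at means below 1 FPKM.

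The sodium pump subunit Atp1b1 was the most abundant dominant member of the 90 families, with 1113, 1040, 1134 and 1070 FPKM. Atp2a2, the calcium pump of the endoplasmic reticulum, held 99.3 ± 0.0426% of its family at 224 ± 6.37 FPKM. Slc12a5 (KCC2), which keeps neuronal chloride low so that GABA inhibits, had 93.0, 85.4, 107 and 105 FPKM. Slc12a2 (NKCC1), which loads chloride, had 19.99, 29.6, 15.1 and 18.7 FPKM, so Slc12a5 was 4.68-fold higher, from 2.88-fold in control 2 to 7.08-fold in control 3.

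Among nutrient carriers, Slc2a1, the glucose transporter of the blood-brain barrier, had 54.9 ± 5.00 FPKM. Slc2a3, known as the neuronal glucose transporter, was listed at 0.445 FPKM. A record with a like product name, LOC100909595, had 1.14, 1.86, 3.16 and 1.13 FPKM, so the level of this transporter is uncertain. Slc25a4 led the adenine nucleotide translocases at 489 ± 26.5 FPKM. Slc30a3, ZnT3, which fills mossy fibre vesicles with zinc, had 63.5, 36.2, 64.7 and 58.9 FPKM. Slc30a9 had 47.0, 47.9, 46.4 and 47.2 FPKM, so Slc30a3 led except in control 2.

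In the mean, secreted neuropeptides were led by Chgb, a granin, at 202 ± 10.3 FPKM, and Sst, somatostatin of interneurons, with 172, 170, 241 and 187 FPKM. Sst in control 3 and Penk in control 2 (244 FPKM) were above Chgb, so the lead was not the same in all controls. Cck had 110, 110, 170 and 131 FPKM. Nts, neurotensin, was steady at 34.2 ± 1.44 FPKM, and Pdyn, prodynorphin of granule cells, had 33.6 ± 10.4 FPKM. Of 21 detected members of the list 6 were variable (28.6%, against 3.95% of all detected genes), but 0 of 20 were without control 2. Among interneuron genes, 0 of 12 detected members were variable, which is near the background. Gad1, the main GABA-synthesizing enzyme, had 89.0 ± 6.46 FPKM and Pvalb, parvalbumin, 68.8 ± 6.45 FPKM.

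Most genes differed little between the controls. The median detected gene ranged 1.20-fold from its lowest to its highest library on the FPKM + 1 scale, with a median coefficient of variation of 9.45%. Of the 492 variable genes, 108 ranged at least 4-fold and 11 at least 16-fold. The variable share fell with level, from 6.90% of genes at 1 to 5 FPKM to 1.78% (13 of 730) at 100 FPKM or more. No test of this spread against counting error was possible, because FPKM hold no counts.

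Of the 368 detected family members 31 were variable (8.42%), against 3.95% of all detected genes. Without control 2 this was 10 of 362 (2.76%), against 2.01% of all detected genes, without control 3 it was 20 of 367 (5.45%, against 2.44%), and without both it was 2 of 363 (0.551%, against 0.813%). The 31 include Drd1, Drd2, Adora2a, Scn4b and Rarb, which were high in control 2, and the plexus genes Kcnj13, Aqp1, Slc4a5 and Trpv4, which were low in control 3. Members of the glutamate, GABA and glycine receptor families and of the neurotransmitter transporter families contributed none.

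**Figure D3:**
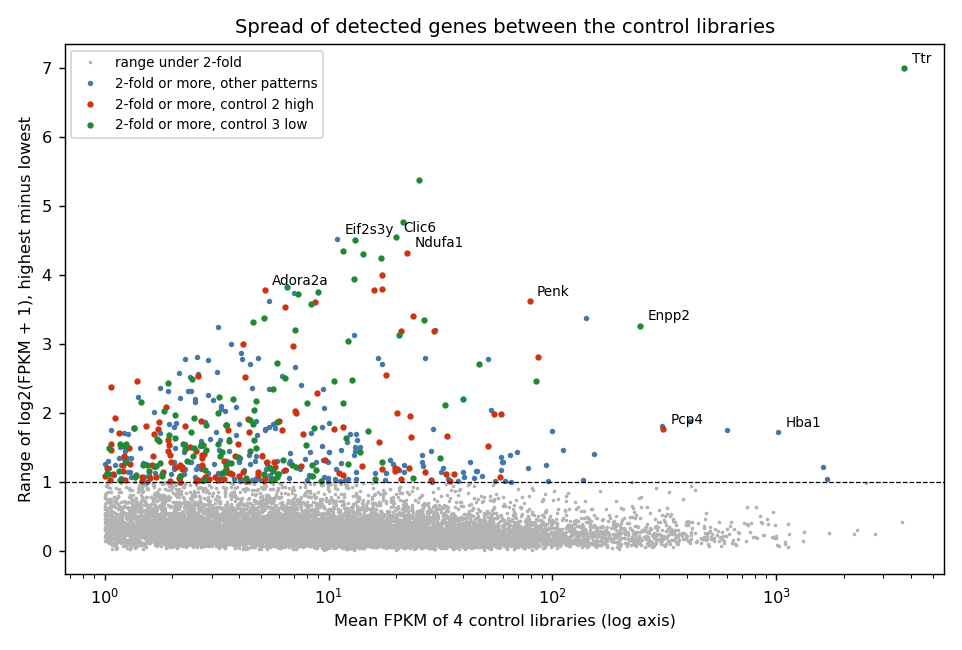
Range of log2(FPKM + 1) over the 4 controls against mean FPKM (log axis) for the detected genes, with the dashed line at 2-fold. Red points are variable genes high in control 2 and green points those low in control 3, and Ttr reaches a range of 7.01.

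At the other end were genes that hardly moved. Of 6261 genes with a mean of at least 10 FPKM, 811 had an SD of log2(FPKM + 1) under 0.05. Taok2, a protein kinase, had 20, 20.1, 20.05 and 19.99 FPKM. Park7 (DJ-1), a redox-sensitive protein, had 80.8, 81.2, 80.6 and 81.0 FPKM. Map2k2, a kinase of the ERK cascade, had 49.3, 49.7, 49.6 and 49.8 FPKM, and Nono, a nuclear RNA-binding protein, 62.8 ± 0.390 FPKM. These were chosen for their small spread, so the values are a description. Among common reference genes, Gusb (3.16 ± 0.0925 FPKM) and Tfrc (20.9 ± 0.550 FPKM) were steady, and Gapdh ran from 976 to 1275 FPKM.

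Variable genes were sorted by which library or pair stood apart at the largest gap. Control 2 stood alone in 158 of the 492 (32.1%) and control 3 in 146 (29.7%), against 51 (10.4%) for control 1 and 33 (6.71%) for control 4. Over all detected genes, variable or not, control 2 stood alone in 26.3%, control 3 in 22.0%, control 1 in 11.8% and control 4 in 12.6%, so these libraries also stood apart most often over all features. The largest classes were 132 genes high in control 2 and 121 low in control 3. Without control 2, 248 genes were variable, and without control 3, 305. Without both, 101 genes ranged at least 2-fold between controls 1 and 4.

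The genes high in control 2 include those of the striatum, whose medium spiny neurons use dopamine and adenosine receptors and opioid peptides. Of 13 detected members of the striatum list, 12 were variable and all 12 were high in control 2, and without that library 0 of 12 were variable. Penk, proenkephalin, had 18.9, 244, 32.6 and 21.4 FPKM. Ppp1r1b, DARPP-32, the dopamine-regulated phosphatase inhibitor, had 33.5, 241, 34.7 and 37.4 FPKM. Control 2 was the high library for both, and the other 3 were close together. Rgs9, which shortens dopamine receptor signals, had 2.98, 53.8, 3.73 and 3.29 FPKM. Tac1, the substance P precursor, had 5.90, 62.1, 8.03 and 7.82 FPKM. The remaining member, Foxp1, was also highest in control 2 at 5.84 FPKM but ranged less than 2-fold.

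The mean log2(FPKM + 1) of the whole striatum list was 2.39, 5.26, 2.65 and 2.58 in controls 1 to 4, and its summed FPKM was 118, 973, 141 and 133. Thalamic genes moved the same way at lower levels. Prkcd had 13.7, 43.1, 6.53 and 8.71 FPKM and Shox2, a thalamic transcription factor, had 0.0357, 4.18, 0 and 0.0355 FPKM. Of 10 detected thalamus and habenula genes 6 were variable, 4 of them high in control 2. Pcp4, a calmodulin regulator listed as a CA2 marker and also abundant in striatum and thalamus, had 215, 626, 223 and 184 FPKM. Slc17a7 was lowest in the same library, as given above. Of the 132 genes high in control 2, 110 belong to no list used here. The part of neighbouring tissue in their levels was not tested.

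The genes low in control 3 include the whole detected choroid plexus list, 16 of 16. Without control 3, 11 of the 16 still ranged at least 2-fold over the other controls, and without controls 2 and 3, 0 of 16 did. The plexus secretes cerebrospinal fluid through tight-jointed epithelium rich in ion and water channels. Clic6, an intracellular chloride channel protein, had 14.8, 39.7, 0.741 and 25.2 FPKM. Kl, klotho, a co-receptor in mineral balance, had 10.6, 29.7, 0.548 and 16.5 FPKM. Folr1, the folate receptor that carries folate into the fluid, had 12.2, 34.6, 0.876 and 20.9 FPKM. All 3 were lowest in control 3 and highest in control 2, as was Ttr.

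Cldn2, a pore-forming claudin of the epithelium, had 8.88, 27.1, 0.239 and 16.2 FPKM, and Slc4a5, its bicarbonate transporter, had 8.86, 24.1, 0.237 and 12.9 FPKM. Enpp2, autotaxin, which oligodendrocytes also make, stayed at 46.7 FPKM in control 3 against 235 to 457 in the others. The list's mean log2(FPKM + 1) was 3.55, 4.60, 1.24 and 3.95 and its summed FPKM 3529, 7931, 122 and 5057. Otx2, the transcription factor that specifies the plexus, was listed at 0 in all 4. Ependymal genes, which mark the ciliated lining of the ventricle, were lower in control 3 as well, with 6 of 9 detected members variable and 0 of 9 without control 3. Foxj1, the master regulator of motile cilia, had 8.45, 13.9, 3.37 and 8.85 FPKM. Of the 121 genes low in control 3, 22 are in the plexus or ependyma lists and 94 are in no list. Mfrp, a frizzled-related membrane protein outside the lists, had 19.97, 54.1, 0.321 and 27.4 FPKM, the same order of libraries as Ttr.

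**Figure D4:**
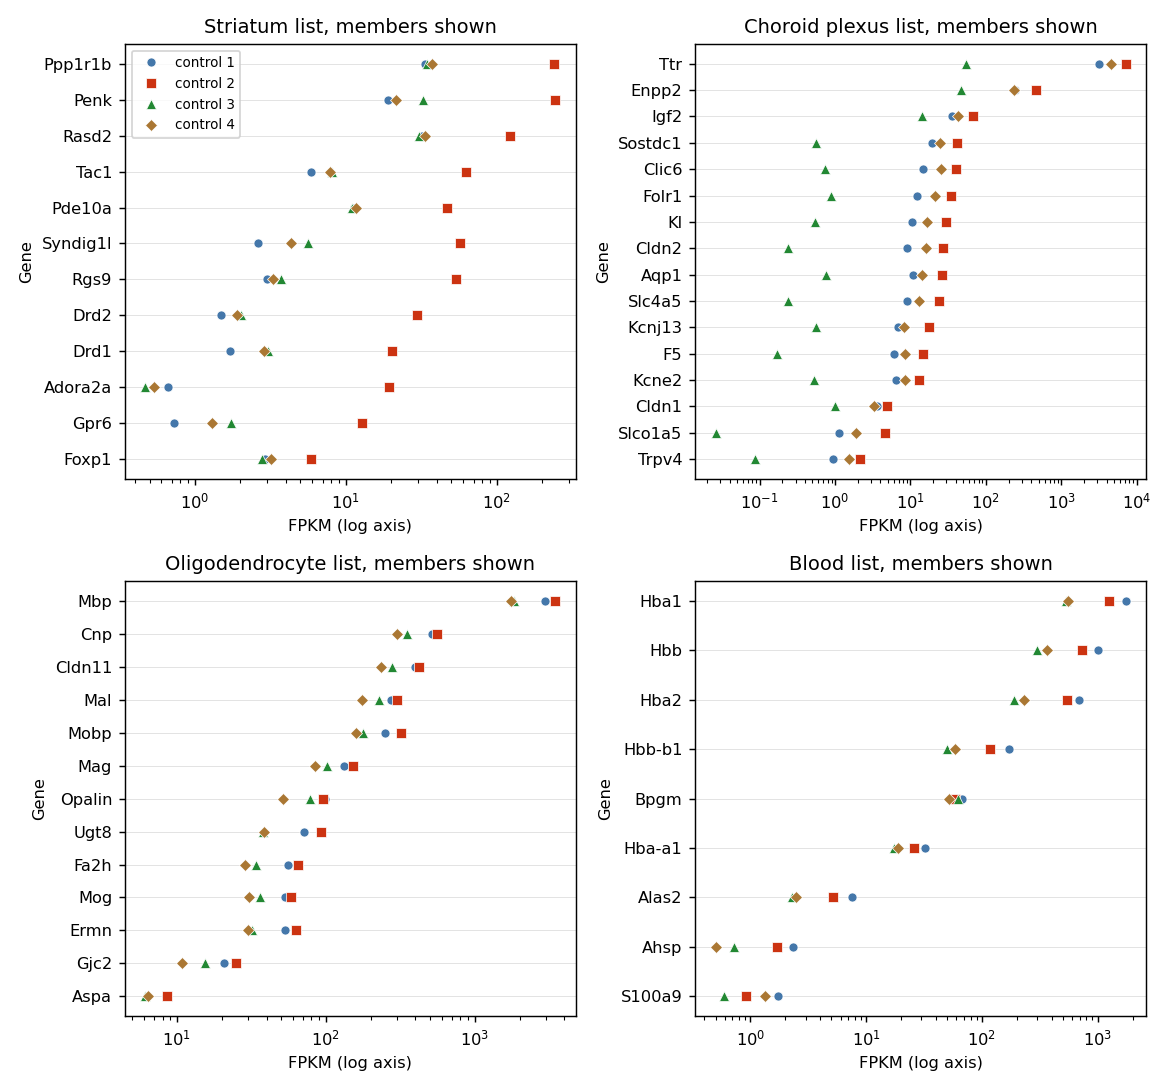
FPKM (log axis) per control library for detected members of the striatum, choroid plexus, oligodendrocyte and blood lists, ordered by mean. Control 2 lies far to the right for striatal genes and control 3 far to the left for plexus genes, while controls 1 and 2 lie together above controls 3 and 4 for all oligodendrocyte genes shown and for all blood genes shown but Bpgm and S100a9.

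Since the plexus genes moved together, their promoters were read, as the 250 bases before the start in the RefSeq table (build GRCr8), for 3 short motifs on both strands. The table held 11 of the 18 listed plexus genes. TATAAA, a form of the TATA box, was in 3 of the 11 (27.3%), against 6.09% of detected genes with an entry and 13.1% of all promoters in the table. It was also in 5 of 16 matched immediate early gene promoters (31.25%) and in 15.2% of the matched promoters of the 100 most abundant genes, so it is not particular to plexus genes. The match in the third plexus gene, Slco1a5, is on the opposite strand at position -146. TAATCC, the core bound by Otx factors, was in 0 of the 11, against 4.57% and 6.33%. A match in so short a window is a description, not a shown site. The promoters of Aqp1 (chr4:85812534-85812783, plus strand) and Kcnj13 (chr9:95518987-95519236, minus strand) are shown because both carry the match on the gene's own strand near the start, at positions -30 and -46. Capitals mark TATAAA.
Aqp1: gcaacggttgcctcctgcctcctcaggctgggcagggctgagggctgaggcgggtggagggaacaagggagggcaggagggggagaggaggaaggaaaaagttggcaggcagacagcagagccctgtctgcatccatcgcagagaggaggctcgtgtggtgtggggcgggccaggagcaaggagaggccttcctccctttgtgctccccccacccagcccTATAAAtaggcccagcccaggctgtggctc
Kcnj13: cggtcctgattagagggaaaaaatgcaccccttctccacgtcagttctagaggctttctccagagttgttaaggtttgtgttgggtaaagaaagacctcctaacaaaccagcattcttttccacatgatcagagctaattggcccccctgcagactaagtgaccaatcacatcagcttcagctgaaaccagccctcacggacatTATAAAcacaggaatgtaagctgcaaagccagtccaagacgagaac

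A further set of 33 variable genes (6.71%) was high in controls 1 and 2, a split that 7.29% of all detected genes showed. Of 14 oligodendrocyte genes, all were detected and 5 were variable, 4 of them with this split. Without control 2, 0 of the 14 were variable. Ugt8, which makes the myelin lipid galactosylceramide, had 71.0, 93.3, 37.6 and 38.3 FPKM. Ermn, a cytoskeletal myelin protein, had 52.9, 62.9, 32.2 and 29.9 FPKM. The list's mean log2(FPKM + 1) was 7.23, 7.404, 6.68 and 6.47, with no overlap between the pairs. Oligodendrocyte precursor genes were split the same way over a smaller span, with controls 1 and 2 both above controls 3 and 4 in 7 of 7. Their list mean was 4.29, 4.34, 3.97 and 3.99, and 0 of 7 were variable, with Pdgfra at 16.6, 16.1, 13.5 and 15.4 FPKM.

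Globin genes followed the same pairs. Of 9 detected blood genes 6 were variable, all high in controls 1 and 2, and 6 were variable without control 2 or without control 3 as well. Hbb, a beta-globin, had 1008, 725, 300 and 365 FPKM, and Alas2, the haem-synthesis enzyme of red cell precursors, had 7.60, 5.21, 2.30 and 2.49 FPKM. Bpgm, an enzyme that sets oxygen release in red cells, had 66.9, 58.1, 61.6 and 52.2 FPKM and was not variable.

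Y-linked records showed the same split where they were detected, in 3 of the 6 found. Eif2s3y, a Y-linked translation initiation factor, had 20.9, 22.7, 0.0328 and 0.0644 FPKM, and Kdm5d, a Y-linked histone demethylase, had 5.75, 5.82, 0 and 0 FPKM. Ddx3, a record whose identifier belongs to the Y-linked helicase Ddx3y, had 10.2, 11.5, 0.0392 and 0.0128 FPKM. A separate Ddx3y record was near 0 in all 4 (0.106, 0.0370, 0.108 and 0.141 FPKM) with no such split, Usp9y was listed at 0 in all 4, and a record named Kdm6a, whose identifier RefSeq gives to Uty, had 0.442, 0.479, 0 and 0 FPKM. The 3 detected Y-linked records were thus at 5 FPKM or more in controls 1 and 2 and below 0.1 FPKM in controls 3 and 4. No label gives the sex of the animals. The part of this split in the myelin and globin genes was not tested.

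As a list, activity-regulated genes were lowest in control 1 and highest in control 3. Immediate early genes are switched on within minutes of neuronal firing or handling. Arc, which acts at active synapses, had 35.1, 54.0, 80.0 and 66.8 FPKM. Egr1, a zinc finger factor, had 48.9, 66.4, 113 and 82.7 FPKM. Nr4a1, an orphan nuclear receptor, had 6.78, 11.3, 21.1 and 16.4 FPKM. Fos itself had 11.2, 13.3, 23.4 and 17.0 FPKM and ranged just under 2-fold. Of 20 detected members 6 were variable (2 of 20 without control 3), and the list's mean log2(FPKM + 1) was 3.05, 3.34, 3.74 and 3.55.

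Glucocorticoid-induced genes were also lowest in control 1, with control 4 highest. Sgk1, a kinase induced by corticosterone, had 18.3, 29.2, 37.3 and 41.8 FPKM. In this list 3 of 11 detected members were variable (27.3%, against 3.95% of all detected genes). The neocortex list's mean log2(FPKM + 1) was 2.93, 3.00, 3.63 and 3.32, the same order of libraries as the immediate early list. Single neocortical genes differed in their lowest library. Of 13 detected members 8 were lowest in control 2 and 4 in control 1, and 10 were highest in control 3. Tbr1, a transcription factor of deep-layer cortical neurons, had 11.2, 6.90, 20.5 and 15.97 FPKM, and Mef2c had 15.8, 14.2, 32.5 and 24.1 FPKM. Variable members were 6 of the 13 (46.2%, against 3.95% of all detected genes), with 3 without control 2, 4 without control 3 and 1 without both. Nr4a2, which was variable, and Egr4, which was not, are in both this list and the immediate early list. The part of cortical tissue in the early gene levels was not tested.

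The cyclic AMP response element, TGACGTCA, is a palindrome bound by CREB. It was in 4 of 16 matched promoters of the 22 listed immediate early genes (25.0%), against 2.90% of detected genes with an entry and 1.70% of all promoters. It was also in 6.33% of the matched promoters of the 100 most abundant genes and in 1 of 9 matched striatum promoters. As for TATAAA, a match is a description, not a shown site. The 4 are Ier2, Dusp1, Btg2 and Maff. Dusp1 was variable, Ier2 and Btg2 were not, and Maff was below detection at 0.626 FPKM. Dusp1, a phosphatase that switches off MAP kinases, had 14.5, 29.0, 36.8 and 24.2 FPKM, and Ier2 had 6.75, 7.22, 10.5 and 8.19 FPKM. Their promoters, Dusp1 (chr10:17184603-17184852, plus strand) and Ier2 (chr19:40399123-40399372, plus strand), are shown with the element in capitals, at positions -124 and -66 from the start.
Dusp1: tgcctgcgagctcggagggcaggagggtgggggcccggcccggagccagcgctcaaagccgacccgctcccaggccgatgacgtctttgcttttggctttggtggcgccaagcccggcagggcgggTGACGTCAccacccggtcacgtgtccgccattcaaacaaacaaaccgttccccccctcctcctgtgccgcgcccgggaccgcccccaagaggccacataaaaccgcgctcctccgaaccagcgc
Ier2: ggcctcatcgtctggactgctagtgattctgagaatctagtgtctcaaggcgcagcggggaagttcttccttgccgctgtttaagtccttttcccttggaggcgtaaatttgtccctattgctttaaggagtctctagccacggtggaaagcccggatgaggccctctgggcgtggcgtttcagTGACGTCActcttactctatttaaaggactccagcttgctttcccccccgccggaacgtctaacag

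Other lists held few or no variable genes. The count was 0 among astrocyte (11), microglia (12), interneuron (12), endothelial (9), oligodendrocyte precursor (7), dentate granule cell (7), pan-hippocampal (9), circadian (17), heat shock (10) and interferon-induced (12) genes, which for lists of this length is near the share over all detected genes. Gfap, the astrocyte filament protein, had 399, 280, 285 and 305 FPKM. Cx3cr1, the microglial fractalkine receptor, had 19.7, 21.2, 17.5 and 17.7 FPKM. Cldn5, the claudin of brain endothelium, had 46.4, 50.3, 43.3 and 48.1 FPKM. Of 13 detected meningeal and fibroblast genes 3 were variable. Igfbp2, a binding protein of insulin-like growth factors, had 65.8, 155.6, 27.4 and 89.8 FPKM and Slc13a4, a sulfate transporter, had 11.8, 22.8, 6.18 and 19.1 FPKM, whereas the collagen gene Col1a1 had 6.08 ± 0.552 FPKM. Of 9 pituitary genes 3 were detected, Chga, Pomc (2.02 FPKM) and the variable Lhb (1.55, 2.02, 0.411 and 1.54 FPKM), and the hormone genes Prl (0.111 FPKM) and Gh1 (0.0524 FPKM) were not.

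**Figure D5:**
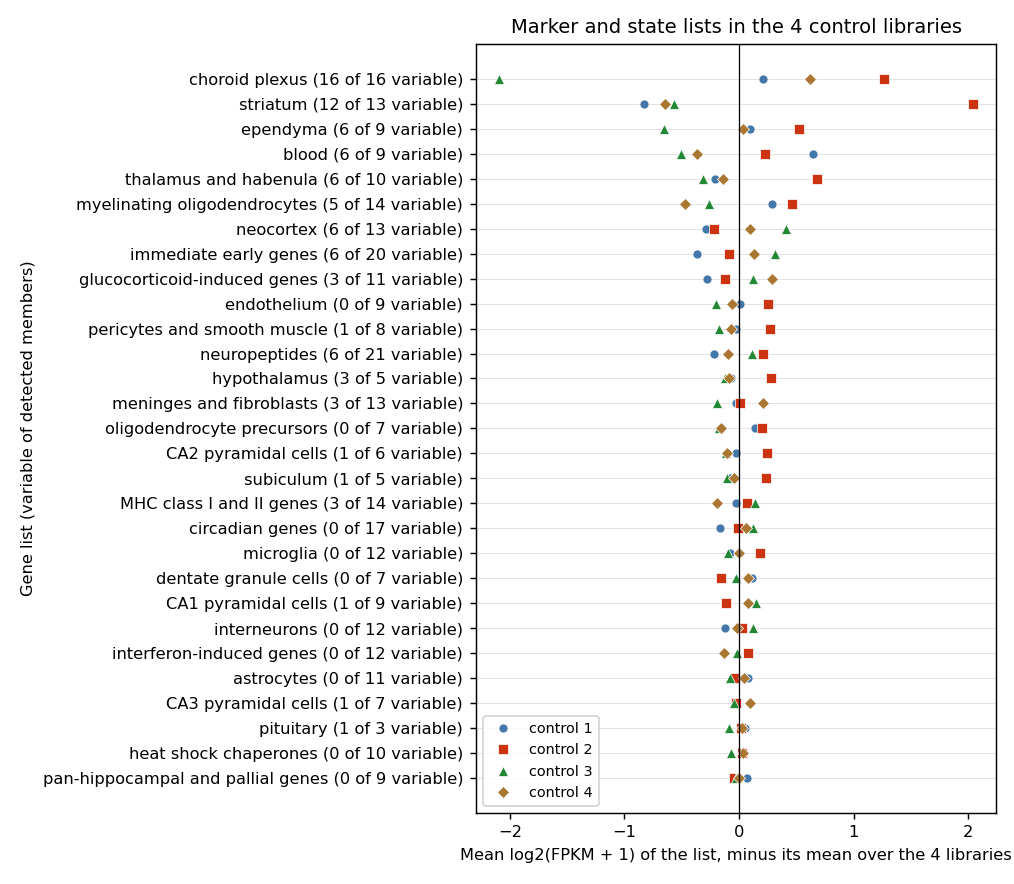
Mean log2(FPKM + 1) of each marker and state list in the 4 control libraries, as the difference from the list's own mean, ordered by range. Choroid plexus (1.24 to 4.60) and striatum (2.39 to 5.26) range widest, and the pan-hippocampal list lies at the bottom with the smallest range.

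The spread of the controls recurred in part in the other libraries. Of the 492 variable genes, 173 (35.2%) also ranged at least 2-fold within both the PTZ and the PTZ plus Q808 group, against 2.93% of all detected genes. Without control 2 this was 132 of 248 (53.2%), and without control 3 it was 111 of 305 (36.4%). Those groups hold 5 libraries each, so their ranges are drawn over more values. The striatal gene Adora2a, which ranged by 3.78 in the controls, ranged by 0.25 and 0.54 on the log2 scale within the 2 other groups. Ttr ranged by 7.01 in the controls and by 5.54 and 4.37 in the others.

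In 27 genes, 20 of them with a symbol, a control had 5 FPKM or more while another had 0.5 or less. Tmem72, a membrane protein of unclear role, had 4.17, 8.94, 0 and 5.26 FPKM. Bmp4, a growth factor, had 5.32, 0.766, 0.470 and 5.68 FPKM. Slc4a5 and Cldn2, given above, are among them. In 12 groups a named gene and unnamed records share a product name and at least 1 of them was variable, and in 5 groups the sum of the records ranged less than 2-fold. Rpl30 was chosen after its values were seen: it had 95.7, 97.5, 166 and 256 FPKM, and the sum with its like-named record was 301, 330, 269 and 277. The division of reads between near-identical copies is not described in the labels, so the levels of such single records are uncertain.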

How the data were processed

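RNA sequencing of hippocampal tissue was analysed for the 4 control libraries, and the 10 others were used for look-ups. The deposited FPKM were computed by the authors. Per the submitters' processing notes, the tools were HISAT2, Bowtie2, SAMtools, StringTie, Cufflinks, HTSeq, Trimmomatic and DESeq, with roles, versions and genome build not given in the sources used here. Per the labels' protocols, mRNA was captured on beads and sequenced on a BGI T7. FPKM without counts allow no counting interval.

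Here FPKM were taken as deposited by the authors, with a pseudocount of 1 on the log2 scale. Genes with a mean of at least 1 FPKM were detected. Variable genes ranged by at least 1 in log2(FPKM + 1). Leaders were compared with the second member by an exact sign-flip permutation test. Symbols turned into dates (12) were read through gene identifiers, and 20633 of 22601 identifiers matched RefSeq (GRCr8), used for names and promoters only. Named genes were the 20 highest, each family's highest and second members and any that could exceed the leader, the 4 highest and the variable members of lists, the variable genes of largest range or level, those of largest range in each pattern, the 10 steadiest and the genes both above 5 and at most 0.5 FPKM. Family members, list members and reference genes named beyond this rule were chosen after their values were seen. Members and lists were chosen with earlier results of these data known. Alternatives were other pseudocounts, filters, thresholds and scalings and leaving out each library. Summing records of 1 product, leaving out controls 2 and 3 together, and counting variable family and list members and recurring genes without these libraries were added after seeing the data. Some genes are not reported here, and figures and flagged results leave them out. The script was tested on simulated data. Python 3.11.15, numpy 2.4.6, pandas 2.3.3, scipy 1.17.1 and matplotlib 3.10.9 were used.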

Additional observations from a re-analysis of the deposited data

Results flagged for a closer look

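In 41 of the 408 genes examined (10.05%) and in 3 of 36 list means, 1 control lay farther from the other 3 than a spread among 4 like values would usually give, by the gap to the nearest library as a share of the whole range (Dixon's ratio, at its 95% critical value for 4 samples). Chance flags about 1 in 20 such groups, but many of these genes were named for a large range or a library that stood apart, so their share cannot be set against that figure. Control 2 was the high library in 22 of these genes and the low one in 6.

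High in control 2 were striatal genes: Drd2 at 29.4 FPKM, Drd1 at 20.2, Adora2a at 19.1, Syndig1l at 56.6, Rgs9 at 53.8, Penk at 244, Ppp1r1b at 241, Rasd2 at 123, Tac1 at 62.1, Pde10a at 46.8 and Gpr6 at 12.9. The mean log2(FPKM + 1) of the striatum list was 5.26 there. Thalamic genes were also high in control 2, with Tcf7l2 at 8.37, Lef1 at 2.45 and Shox2 at 4.18 FPKM. So were the peptide gene Trh at 8.08 FPKM and the hypothalamus list, with a mean log2(FPKM + 1) of 1.39, against 0.983 to 1.04 in the other controls. That list, which holds Trh, lies near the floor: 5 of its 12 genes were detected, and 3 of these 5 were highest in control 2. Further genes high in control 2 were Pcp4 at 626, Hcn2 at 60.4, Rarb at 7.01, Slc18a3 at 1.78, Esam at 11.2, Ndufa1 at 78.0 and Pdcd5 at 5.17 FPKM.

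Low in control 2 were Slc17a7 at 524, Apoe at 1520, Nnat at 430, Adra1d at 19.2, Kcnd3 at 10.8 and RT1-Db1 at 0.507 FPKM.

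In control 3, Hprt1 (11.9), Polr2l (47.5), Ppia (1090), Kcnk1 (27.6) and Cd74 (21.1) were high and P2ry13 (2.91) was low, all in FPKM. In control 1, Tma7 (40.3), Nhp2 (15.1) and Mrpl53 (17.4) were high. In control 4, Rplp2 (74.9), Cacna1e (28.9), Prl (0.444) and Slc6a2 (0.0253) were high. Prl and Slc6a2 were not detected and were at 0 in controls 1 to 3, so any value above 0 in control 4 would be flagged. The CA3 list was flagged there at a mean log2(FPKM + 1) of 3.57, against 3.43 to 3.45 in the other controls. Its range was small at 0.139, and 1 of its 7 detected members was highest in control 4.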

How the results depend on the processing

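The count of detected genes, the share of the top 100 genes and the number of families with 1 leader (71 to 75 with a control left out, 70 under each scaling and pseudocount) kept within their limits under all alternatives run. For the families this was largely fixed in advance. Scaling and pseudocount keep the order of genes within a library, and a gene that leads in all controls still leads when a control is left out. The 492 variable genes became 829 with a pseudocount of 0.1, 230 with a minimum mean of 5 FPKM, 1531 at 1.5-fold and 108 at 4-fold. With a control left out they numbered 248 (without control 2) to 428 (without control 1), with 305 without control 3, and 101 without both controls 2 and 3. Of the 492, 237 were also variable without control 2 and 293 without control 3. The 3 scalings gave 474 to 486, and summing records of 1 product gave 484.

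The order of leader and second member, as the mean log2 difference, turned in 7 of 720 alternatives, each with a control left out. With each control left out in turn, Npy1r against Npy2r ran from -0.0038 (without control 2) to 0.229, Kcna1 against Kcna6 from -0.0870 (without control 4) to 0.138, and Kcnn2 against Kcnn1 from -0.0273 (without control 3, also below 0 without control 1) to 0.0245. Clcn6 against Clcn4, just below 0 over all 4, ran from -0.0675 to 0.0644 (without control 1, also above 0 without control 2), and Slc29a4 against Slc29a3 from -0.0577 (without control 4) to 0.334. The cause was not tested. No paired analysis was possible because only 1 group was described. Depth is unknown, so spread at low FPKM cannot be set against counting error.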

Other observations

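Some genes that most cells use were near a low level in most libraries and several-fold higher in a few, and most of them are in no marker list. Ndufa1, a small subunit of respiratory complex I, had 4.21, 78.0, 2.94 and 4.46 FPKM in controls 1 to 4. Tma7, a ribosome-associated protein, had 40.3, 3.74, 3.94 and 4.02 FPKM, and Hprt1, the purine salvage enzyme used as a reference gene, had 0.636, 0.618, 11.9 and 1.54 FPKM. Capns1, the small calpain subunit, had 6.93, 75.9, 6.39 and 6.27 FPKM in the controls and from 3.48 to 105 FPKM in the other 10 libraries. Rplp2, an acidic ribosomal stalk protein, had 12.4, 11.1, 9.96 and 74.9 FPKM, and 73.2 and 56.0 FPKM in 2 of the other libraries. The high library was control 2 for Ndufa1 and Capns1, control 1 for Tma7, control 3 for Hprt1 and control 4 for Rplp2. Hprt1 has a like-named record, LOC103689983, with 0.555, 5.54, 9.76 and 0.468 FPKM, and Capns1 has 2, so the values of these records may not be the levels of the genes.

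The neuropeptide Y gene Npy, a strong interneuron transcript, was listed at 0.0987, 0.207, 0 and 0 FPKM in the controls. An unnamed record whose product is a pro-neuropeptide Y-like protein, LOC100912228, chosen after its values were seen, had 0.871, 1.93, 1.28 and 23.9 FPKM. How reads were divided between these records was not given in the sources used here, so neither value can be read as the level of neuropeptide Y.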
